A study of Mus musculus with 30 samples.

Results

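The comparison described here is between neurospheres that lack Olig1 and Olig2 and neurospheres that still express them. The members are the 12 neurosphere arrays without GFP or Olig2 virus, chosen by their titles out of 30 arrays in the series: 6 null cultures (Olig1/2-/-; lines 12, 13, 14, 16, 21 and 24), 3 heterozygous cultures (Olig1/2+/-; lines 11, 15 and 26) and 3 wild-type cultures (Olig1/2+/+; lines 2, 3 and 20). All 12 were Ink4a/Arf-/-, so the controls also lacked this tumour suppressor locus, and all had received EGFRvIII, a constitutively active form of the EGF receptor found in glioma, by retrovirus at passage 1 with puromycin selection (2 µg/mL). Each culture was grown from the ganglionic eminence at E14.5 on a mixed Swiss and C57BL/6J background, in EGF and bFGF at 20 ng/mL, and was harvested at some passage between 4 and 15 that is not given per array. The labels do not say whether lines came from separate embryos, so the p-values measure the spread between these cultures. RNA was measured on Affymetrix Mouse Genome 430 2.0 arrays, and each value is the MAS5 signal, an intensity on a linear scale with the same trimmed mean on every array. All arrays carry the same hybridisation date.

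Olig1 and Olig2 encode basic helix-loop-helix transcription factors, which mark neural progenitors and cells of the oligodendrocyte lineage. Such factors pair with E proteins and bind short DNA motifs called E-boxes, and Olig2 is known to act largely as a repressor of transcription in progenitors. Id proteins lack a DNA-binding region and sequester E proteins. Neurospheres are floating clusters of progenitors kept dividing by growth factors. The comparison asks which functions and gene families depend on Olig1 and Olig2 in such cells.

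Neural progenitor markers were present on all 12 arrays: the signal was 4660 to 6960 for Nes, 4316 to 7309 for Sox2, 34980 to 43511 for Vim and 14988 to 27356 for Fabp7, and none of these 4 genes was called. The defining microglial genes Aif1 and Ptprc, the endothelial genes Pecam1 and Cdh5 and the mural and meningeal genes Pdgfrb and Dcn lay below the array median on all 12 arrays; Csf1r and Kdr lay above it on all 12, Cx3cr1 on 1 and Col1a1 on 3. The summed signal of 17 microglial markers was 2180 to 2727 in null and 1844 to 2197 in Olig-expressing cultures, that of 14 endothelial markers 2100 to 3419 and 2531 to 3071, that of 20 pericyte, fibroblast and meningeal markers 5454 to 9119 and 6323 to 7507, and that of 11 Schwann and neural crest markers 5797 to 9008 and 6476 to 12410. Only the microglial sums were higher in null cultures beyond a small overlap, and P2ry12, a purinergic receptor and microglial marker, rose by 1.51 in null cultures. The part of such cells in the results was not tested. In a bulk culture fewer cells of a type and less RNA per cell cannot be told apart. Median signals ran from 151.4 to 190.4, and principal component 1, with 26.3% of the variance, separated the 6 null from the 6 Olig-expressing cultures, while component 2 (14.6%) separated lines 20, 21, 24 and 26 from the others. The log2 ratio of the Gapdh 3' to 5' control probe sets, a measure of RNA integrity, was -0.33 to -0.26 in wild-type, -0.23 to -0.21 in heterozygous and -0.26 to -0.13 in null cultures, and that of beta-actin was 0.11 to 0.15, 0.12 to 0.24 and 0.19 to 0.25. Both ratios thus moved with genotype, the wild-type and null ranges did not overlap, and counts with the Gapdh ratio as a term in the model are given beside the larger groups as the Gapdh term. The part of RNA integrity in the results was not tested beyond that. Genes of chromosome 15 lay above their mean by a median of 0.29 (log2) in null line 14 and 0.22 in null line 16. The median was 0.095 in heterozygous line 11, and genes of chromosome 19 were at 0.26 in wild-type line 3. Of 476 genes tested on chromosome 15, 27 were called higher and 7 lower in null cultures (7.14% together, against 8.32% of all genes). With chromosome medians removed 992 genes were called over all chromosomes, against 1000 without that step. The part of these shifts in the results was not tested beyond that and the fits without null lines 14 and 16.

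The targeted genes were lower but not absent in the null cultures. Olig1 signals were 30893, 26296 and 22640.5 in the wild-type, 20360.5, 22618 and 25483 in the heterozygous and 7064 to 9509 (median 7856) in the null cultures, and Olig1 fell by 1.61 ± 0.10 (SE) (adjusted p = 2.1e-07) on the log2 scale. Olig2 signals were 18048, 14487 and 13959.5 in the wild-type, 14405, 13159 and 11500.1 in the heterozygous and 6177 to 11577 (median 7879.8) in the null cultures, and Olig2 fell by 0.80 ± 0.14 (SE) (adjusted p = 0.0028). For Olig1 the null cultures lay below all 6 Olig-expressing cultures. For Olig2 null line 24 lay just above heterozygous line 26, and Olig2 was called against wild-type but not against heterozygous cultures alone (adjusted p = 0.051). The position of the probes with respect to the deletion is not stated in the labels, so the signal that remained is no measure of intact transcript. Cdkn2a, which encodes the Ink4a and Arf products deleted in all 3 genotypes, lay below the array median on all 12 arrays and was not tested. Of 12022 genes tested, 1000 were called at an adjusted p under 0.05 (8.32% of genes; limma, Benjamini-Hochberg), with 522 higher (4.34%) and 478 lower (3.98%) in null cultures; 315 calls (2.62%) were 2-fold or larger, 196 higher and 119 lower. With the Gapdh term 437 genes were called. All differences are log2 differences of the signal plus 16, null minus Olig-expressing, which understates the change of genes with low signals.

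Both control genotypes gave calls on their own, in comparisons that share the 6 null arrays. In these, 806 genes (6.7%) were called against wild-type, 464 higher (3.86%) and 342 lower (2.84%), and 422 (3.51%) against heterozygous cultures, 258 higher (2.15%) and 164 lower (1.36%). Of these, 326 (2.71%) and 215 (1.79%) were 2-fold or larger. Of the 522 genes called higher against all controls, 206 were called against each control genotype alone and 90 against neither. For the 478 genes called lower these counts were 111 and 134. Against wild-type, 478 genes were called once line 2 was dropped, 529 once line 3 was and 157 with the Gapdh term, and 242 genes were called against heterozygous cultures once line 11 was dropped and 272 once line 15 was. Heterozygous and wild-type cultures differed in 4 genes (0.0333%; 799 at an unadjusted p under 0.05): Sparcl1, Efhd2 and Rhbdf1 were higher (0.025%) and Klhl23 was lower (0.00832%) in heterozygous cultures, and none of the 4 kept its call with the Gapdh term.

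**Figure D1:**
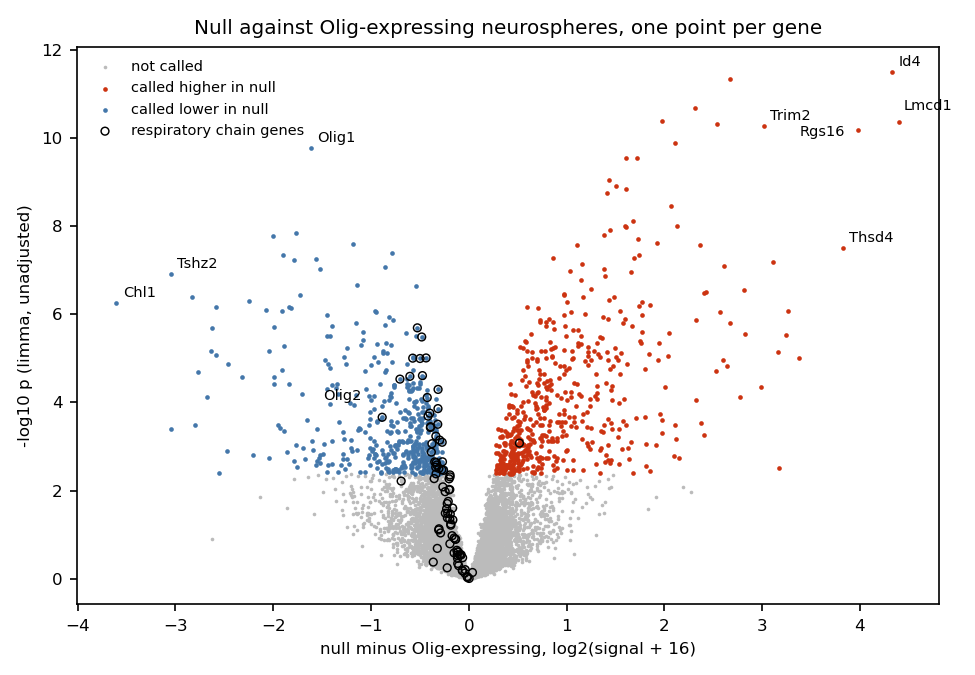
Each point is 1 of 12022 genes, with the null minus Olig-expressing difference of log2(signal + 16) on the x axis and -log10 of the unadjusted limma p on the y axis. Red points are the 522 genes called higher, blue points the 478 called lower, and black rings the 84 respiratory-chain genes, of which 81 lie left of 0.

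The clearest separations were rises. All 6 null arrays lay above all 6 Olig-expressing arrays for 294 genes (2.45%) and below them for 242 (2.01%), 536 in all (4.46%). The gap between the nearest arrays of both groups was 2-fold or more for 24 genes above (0.2%) and 6 below (0.0499%), 30 together (0.25%). The Id inhibitor gene Id4 had the widest gap. Its signals were 156, 202 and 117 in the wild-type, 119, 200.3 and 64.4 in the heterozygous and 2574 to 3407 (median 3072) in the null cultures; it rose by 4.33 ± 0.20 (SE) (adjusted p = 2.8e-08). Lmcd1, which encodes a LIM-domain cofactor studied mainly in muscle, had signals of 93.7, 222 and 361 in the wild-type, 391, 309.6 and 216 in the heterozygous and 4116 to 6958 (median 5405) in the null cultures and rose by 4.41 ± 0.24 (SE) (adjusted p = 9.2e-08). Rgs16, whose product shuts off G-protein alpha subunits, had signals of 388, 319.6 and 261 in the wild-type, 267, 566 and 538 in the heterozygous and 4521 to 10062 (median 5611) in the null cultures and rose by 3.99 ± 0.23 (SE) (adjusted p = 9.8e-08). In all 3 genes the lowest null culture was several times above the highest Olig-expressing culture. Thsd4, a gene of fibrillin-associated matrix, went from at most 17.7 to at least 241, and the ubiquitin ligase gene Trim2 from at most 541 to at least 2283. Among lower genes Tshz2, a zinc-finger homeobox factor, had the widest gap, with signals of 282, 331 and 639 in the wild-type, 395, 241 and 212 in the heterozygous and 15.9 to 44 (median 24.7) in the null cultures; it fell by 3.04 ± 0.31 (SE) (adjusted p = 3.1e-05). Ildr2 fell by 1.90 ± 0.18 (SE) (adjusted p = 1.6e-05) and the cell adhesion gene Chl1 fell by 3.60 ± 0.42 (SE) (adjusted p = 0.0001). Chl1 was uneven among the controls: 5166 in wild-type line 2 against 416 in wild-type line 3, with the null cultures at 85.9 to 177. Every gene in this paragraph was called whichever array was left out and under every alternative setting that kept its probe set (the Lmcd1 probe set is one that can cross-hybridise). Against wild-type and heterozygous cultures separately Id4 rose by 4.15 and 4.51, Lmcd1 by 4.68 and 4.13, Rgs16 by 4.20 and 3.77, and the differences of Tshz2 were -3.29 and -2.80.

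Other genes among the 10 largest rises and the 10 largest falls had wider spreads. Fam167a rose by 3.11 ± 0.30 (SE) (adjusted p = 2e-05), with signals of 35.2 to 113 in Olig-expressing and 474 to 1606 in null cultures. Klhdc8b rose by 3.27 ± 0.39 (SE) (adjusted p = 0.00013), with signals of 7 to 129 in Olig-expressing and 368 to 1198 in null cultures. Both were called against wild-type and against heterozygous cultures alone. Car3, a carbonic anhydrase otherwise typical of muscle and fat, rose by 3.17 ± 0.46 (SE) (adjusted p = 0.00053), with signals of 236 to 3040.1 in Olig-expressing and 4292 to 21842 in null cultures; it rose by 4.01 against wild-type and by 2.33 against heterozygous cultures. The Y-linked Eif2s3y is also among the 10 rises, kept its call in 3 of 12 leave-one-out fits and differs with the sex of the cultures, which was not balanced: the Xist signal, a sign of female cells, was high in only 2 of the 6 null cultures but in 4 of the 6 controls. Among the falls, Ramp1, which shapes the ligand choice of calcitonin-family receptors, fell by 2.76 ± 0.44 (SE) (adjusted p = 0.0011), with signals of 2424 to 4226 in Olig-expressing and 140.5 to 1499 in null cultures, and all null cultures lay below all controls. Ddit4l, an inhibitor of mTOR signalling, fell by 2.59 ± 0.30 (SE) (adjusted p = 0.00012), and the protocadherin gene Pcdh7 fell by 2.64 ± 0.38 (SE) (adjusted p = 0.00053). The carbonic anhydrase-related gene Car8 fell by 2.83 ± 0.32 (SE) (adjusted p = 8.1e-05). Mamdc2 fell by 2.68 ± 0.49 (SE) (adjusted p = 0.0029) and was called against wild-type (-3.55) but not against heterozygous cultures (-1.81, adjusted p = 0.13), and the same held for Gap43 (-4.33, and -1.75 with an adjusted p of 0.32).

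E-boxes of the general form were about as frequent in the promoters of called genes as in those of all genes. RefSeq promoters (GRCm38.p6) were matched for 9710 of the 12022 genes by Entrez identifier, of which 414 were called higher and 379 lower, and the 250 bases before the first listed start were searched on both strands. The general E-box CANNTG was present in 57.5% of the higher, 58% of the lower and 57% of all matched genes. The form CAGATG was present in 9.18%, 10.8% and 9.95%, the palindrome CAGCTG in 14.49%, 10.6% and 11.5%, and CACGTG in 7.97%, 5.28% and 8.45%. The last 3 are kinds of CANNTG. Over all 27025 RefSeq promoters CANNTG was in 66%. The windows of the 2 genes that rose most are shown because they differ in this respect, with E-boxes in capitals.
Lmcd1 (chr6:112273508-112273757, plus strand, 250 bases before the start): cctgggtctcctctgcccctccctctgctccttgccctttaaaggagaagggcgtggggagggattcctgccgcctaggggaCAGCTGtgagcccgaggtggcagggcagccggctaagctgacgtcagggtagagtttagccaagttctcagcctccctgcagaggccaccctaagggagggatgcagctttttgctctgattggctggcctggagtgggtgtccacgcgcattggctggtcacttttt
Id4 (chr13:48260866-48261115, plus strand, 250 bases before the start): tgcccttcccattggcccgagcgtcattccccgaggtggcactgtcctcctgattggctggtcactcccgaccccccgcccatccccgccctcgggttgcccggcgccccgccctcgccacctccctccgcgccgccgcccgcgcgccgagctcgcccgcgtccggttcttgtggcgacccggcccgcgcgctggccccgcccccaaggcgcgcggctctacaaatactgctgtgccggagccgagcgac

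The Lmcd1 window held 1 E-box, CAGCTG, and the Id4 window held 0. A match is a string of letters and not a measured binding site, and other parts of these genes were not searched.

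Functions were then read from 99 gene lists and symbol families, which together hold 3069 tested genes, 388 of them called (12.6%, against 8.32% of all genes). A list was taken up in detail where at least 4 members were called and the share called was at least 1.5 times that of all genes, which 41 lists met, so the counts describe lists chosen by those counts and carry no test. Another 12 lists with at least 15 tested members had a share called of at most 50% of that of all genes. The remaining 46 lay between or were small. The median difference over all genes was -0.02. Of 201 genes named by rule, 161 kept their call in all 12 leave-one-out fits, and 98 kept the call under every other setting as well.

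**Figure D2:**
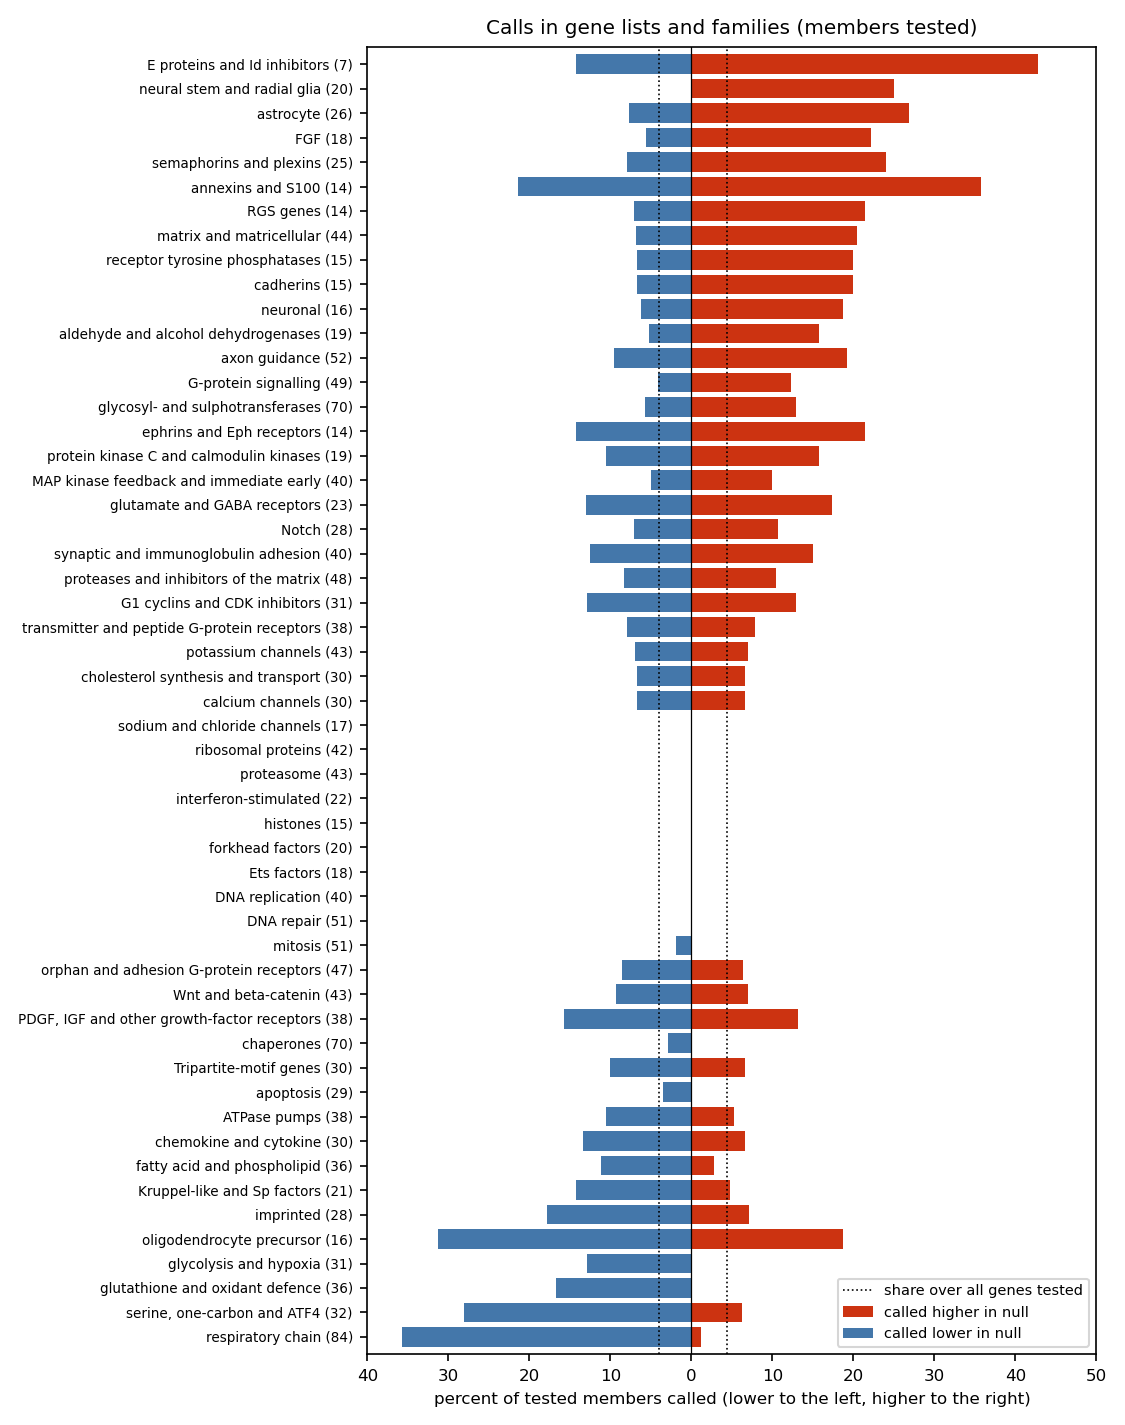
Share of tested members called higher (red, to the right) and lower (blue, to the left) in null cultures, in percent, for 41 lists with many calls and 12 with few, with the number tested in parentheses. Dotted lines mark the shares over all genes, 4.34% higher and 3.98% lower. The respiratory chain reaches furthest left, with 30 of 84 called lower, and 9 lists have no bar.

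Genes of the mitochondrial respiratory chain had the largest share of falls among the lists described. The chain passes electrons through complexes I to IV and uses the resulting proton gradient to make ATP at complex V. Of 84 subunit and assembly genes tested, 30 fell and 1 rose, 81 had a negative difference (96.4%, against 53.6% of all genes), and the median was -0.22. The falls were small, between 0.26 and 0.89 with a median of 0.38, but for 21 of the 84 genes (25%, against 2.01% of all genes) every null culture lay below every Olig-expressing culture. Against wild-type alone 26 fell and 1 rose, with 80 of 84 negative, and against heterozygous cultures alone 10 fell and 0 rose, again with 80 negative.

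Members of all 5 complexes fell. Complex I (NADH dehydrogenase) had 11 of 43 genes lower and 1 higher, complex II (succinate dehydrogenase) 4 of 4 lower, complex III (cytochrome bc1) 6 of 8, complex IV (cytochrome oxidase) 4 of 12 and complex V (ATP synthase) 5 of 17. The medians were -0.21, -0.36, -0.33, -0.23 and -0.24. Atp5o, a subunit of the stalk that joins the parts of ATP synthase, had signals of 12317, 10958 and 12454 in the wild-type, 10682, 10106 and 10977 in the heterozygous and 7085 to 8504 (median 7805) in the null cultures and fell by 0.53 ± 0.07 (SE) (adjusted p = 0.00023). Uqcrfs1, the Rieske iron-sulphur protein of complex III, had signals of 7516, 6655 and 7279 in the wild-type, 6549, 6237 and 6666 in the heterozygous and 4509 to 5259.9 (median 4875) in the null cultures and fell by 0.48 ± 0.06 (SE) (adjusted p = 0.00032). Ndufs3, a core subunit of complex I, had signals of 4513, 4458 and 4419.9 in the wild-type, 3672, 3658 and 3952 in the heterozygous and 2839.9 to 3312 (median 3022) in the null cultures and fell by 0.44 ± 0.06 (SE) (adjusted p = 0.00065). In each of the 3 the null cultures lay below all controls without overlap. The membrane anchor gene Sdhd of complex II fell by 0.70 ± 0.12 (SE) (adjusted p = 0.0015), with signals of 3679 to 4655 in the 6 controls and 1968 to 3201 in null cultures; Sdhb fell by 0.34 (adjusted p = 0.013) and Sdhc fell by 0.38 (adjusted p = 0.017). The catalytic subunit gene Sdha fell by 0.28 (adjusted p = 0.044), and in the leave-one-out fits it kept its call only where wild-type line 3 or null line 12 was left out. The largest fall in the family was that of Cox7c, which fell by 0.89 ± 0.18 (SE) (adjusted p = 0.0065). Ndufv3 was the exception, with a rise of 0.52 (adjusted p = 0.017). Sdha, Sdhb, Sdhc, Sdhd and Cox7c were singled out after their values were seen. With the Gapdh term 14 of the 84 fell and 0 rose, with a median of -0.24, without the variance trend 19 fell, and with 1 array left out 21 to 29 fell. Calls ended with the Gapdh term for Sdha, Sdhb, Sdhc, Cox7c and Ndufv3, with the mean of all probe sets for Sdha and Sdhd, and without null lines 14 and 16 for Sdha and Ndufv3; Sdha kept its call in 9 of 16 other settings.

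The mean deviation of the 84 genes from their average over the 12 cultures was 0.19, 0.11 and 0.20 (log2) in wild-type lines 2, 3 and 20, 0.07, -0.01 and 0.20 in heterozygous lines 11, 15 and 26, and -0.22 to -0.04 in the null cultures. The null cultures thus lay below all 6 controls without overlap, with heterozygous line 15 nearest to them. Transcripts of cytosolic ribosomal proteins, measured the same way, were at -0.06 to 0.19 in controls and -0.09 to 0.04 in null cultures, which overlapped.

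**Figure D3:**
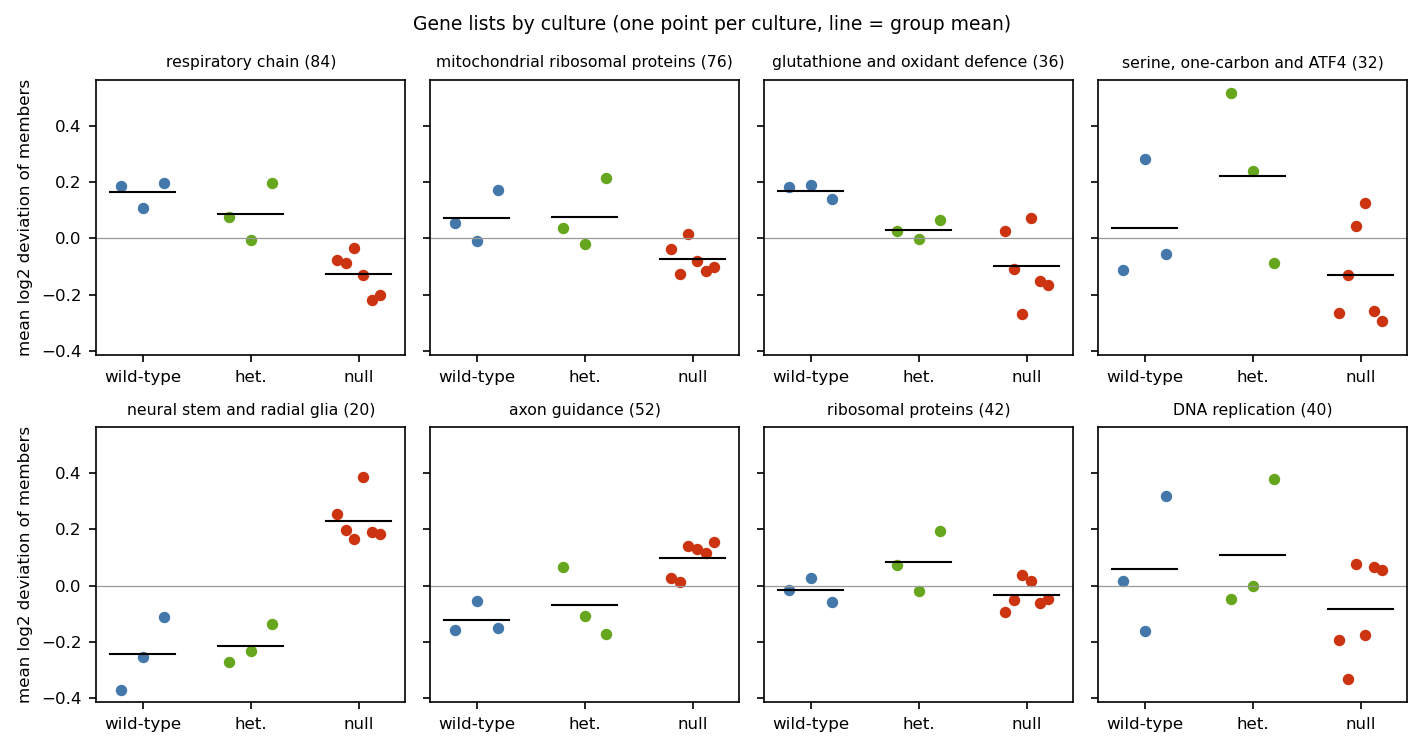
Mean deviation of log2(signal + 16) of a list's tested members from each gene's mean over the 12 cultures (y axis), by culture, for 8 lists with the number of members in parentheses. Each point is 1 culture and the line is the group mean. Null cultures lie below all controls for the respiratory chain (-0.22 to -0.04) and above them for neural stem genes (0.16 to 0.39), while ribosomal proteins and DNA replication overlap.

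Other mitochondrial genes were looked at after the respiratory chain, with lists chosen after that result was seen. Of 15 genes of the tricarboxylic acid cycle and of pyruvate dehydrogenase, which feed electrons to the chain, 11 fell and 0 rose, all 15 differences were negative and the median was -0.44. Against wild-type alone 11 fell, and against heterozygous cultures alone 4 fell. Idh3a, the catalytic subunit of NAD-dependent isocitrate dehydrogenase, had signals of 6098, 4965 and 6578 in the wild-type, 4806, 4709.6 and 4565 in the heterozygous and 2495 to 3253 (median 2918) in the null cultures and fell by 0.86 ± 0.09 (SE) (adjusted p = 2.4e-05). Pdha1, the catalytic subunit of pyruvate dehydrogenase, fell by 0.57 ± 0.08 (SE) (adjusted p = 0.00064), citrate synthase, Cs, fell by 0.47 ± 0.08 (SE) (adjusted p = 0.0014) and malate dehydrogenase 2, Mdh2, fell by 0.44 ± 0.08 (SE) (adjusted p = 0.0036). Idh3g and Pdhb also kept their calls under every alternative. The other 5 were Dld, Dlat, Dlst, Ogdh and Sucla2, of which Dlat, Dlst, Ogdh and Sucla2 lost the call with the Gapdh term and Dld with the mean of all probe sets. Of 37 mitochondrial carrier genes 6 fell and 1 rose: the phosphate carrier Slc25a3 fell by 0.34, the oxoglutarate carrier Slc25a11 fell by 0.42 and the aspartate-glutamate carrier Slc25a12 fell by 0.47. Of 76 mitochondrial ribosomal protein genes 8 fell and 0 rose, with 65 negative and a median of -0.17, and with the Gapdh term 0 were called. Of 10 genes for mitochondrial DNA upkeep and transcription 0 were called, although all 10 differences were negative (median -0.10). Cycs, the electron carrier cytochrome c, fell by 0.34 (adjusted p = 0.0031), and the mitochondrial chaperone gene Hspa9 fell by 0.41 (adjusted p = 0.0045). Under alternative settings calls ended with the Gapdh term for Slc25a3 and Slc25a11, with the mean of all probe sets for Slc25a12 and Cycs.

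Ppargc1a encodes PGC-1 alpha, a coactivator that drives the expression of mitochondrial genes in many tissues. Its signals were 2098, 1629 and 2234 in the wild-type, 1479, 1644 and 1065 in the heterozygous and 204 to 654 (median 381) in the null cultures. Every null culture lay below every control. Among the controls heterozygous line 26 was lowest for Ppargc1a. Ppargc1a fell by 2.07 ± 0.25 (SE) (adjusted p = 0.00013), with differences of -2.33 against wild-type and -1.81 against heterozygous cultures, and was called under every alternative and without each array in turn. Its partner, the nuclear receptor gene Esrra, fell by 0.44 (limma, adjusted p = 0.03). In the leave-one-out fits Esrra kept its call only without wild-type line 2, heterozygous line 11, null line 16 or null line 24. The Esrra call also ended with the Gapdh term, with a term for Xist and without null lines 14 and 16. Both genes were picked after their values were seen.

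Among 32 genes of serine synthesis, one-carbon metabolism and the ATF4 amino-acid response, 9 fell and 2 rose, with a median of -0.37. Of these genes 2 fell against wild-type alone and 8 against heterozygous cultures alone, although none was called between heterozygous and wild-type cultures, and the mean deviation overlapped between null (-0.30 to 0.12) and Olig-expressing cultures (-0.11 to 0.52). Atf5, a stress-response factor, fell by 0.67 ± 0.14 (SE) (adjusted p = 0.0068), Phgdh, the first enzyme of serine synthesis, fell by 0.41 ± 0.09 (SE) (adjusted p = 0.0077) and the lipoprotein receptor gene Vldlr, an ATF4 target, fell by 1.08 ± 0.14 (SE) (adjusted p = 0.00027). The rises were cystathionine beta-synthase, Cbs, which rose by 2.32 ± 0.29 (SE) (adjusted p = 0.00018), and the folate enzyme gene Aldh1l1, also an astrocyte marker, which rose by 1.57 ± 0.33 (SE) (adjusted p = 0.0075). With the Gapdh term 1 higher and 2 lower remained. Of 36 genes of glutathione and oxidant defence 6 fell and 0 rose: the quinone reductase gene Nqo1 fell by 1.34 ± 0.24 (SE) (adjusted p = 0.0026), thioredoxin, Txn1, fell by 0.54 ± 0.06 (SE) (adjusted p = 5.3e-05), and Nfe2l2, the NRF2 factor that induces such genes, fell by 0.43 ± 0.09 (SE) (adjusted p = 0.008). Against wild-type alone 7 fell and against heterozygous cultures 3, and 3 fell with the Gapdh term, without wild-type line 2 or without heterozygous line 11. Of 31 genes of glycolysis and hypoxia 4 fell and 0 rose (median -0.26), among them lactate dehydrogenase A, Ldha, which fell by 0.41 (adjusted p = 0.0082), and the count was 0 against wild-type, 2 against heterozygous cultures and 6 with the Gapdh term. It became 1 on dropping wild-type line 3 or heterozygous line 11, 2 on dropping wild-type line 2, and 7 on dropping wild-type line 20 or heterozygous line 26. Among the genes named here, calls ended with the Gapdh term for Atf5, Phgdh and Aldh1l1, with the mean of all probe sets for Nfe2l2.

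Genes of lipid and aldehyde metabolism had calls in both directions, at 13.9% of the fatty acid and phospholipid genes tested, 13.3% of the cholesterol genes and 21.1% of the dehydrogenases, against 8.32% of all genes. In fatty acid and phospholipid metabolism 1 of 36 tested rose and 4 fell; the beta-oxidation enzymes Acadvl and Acadl fell by 0.53 and 0.57, and the brain carnitine palmitoyltransferase gene Cpt1c rose by 0.75. In cholesterol synthesis and transport 2 of 30 tested rose and 2 fell: the HDL receptor gene Scarb1 fell by 0.999 (adjusted p = 0.00081), and Apoe, with a difference of 1.68 (adjusted p = 0.049), kept its call only where wild-type line 2, null line 21 or null line 24 was left out. Among aldehyde and alcohol dehydrogenases 3 of 19 tested rose and 1 fell, and with the Gapdh term none was called. The call of Cpt1c ended with the Gapdh term and that of Acadl with the mean of all probe sets.

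Proliferation and housekeeping genes stayed mostly without calls. Of 40 DNA replication genes 0 were called (median -0.15), of 51 mitosis genes 1 fell (median -0.18) and of 51 DNA repair genes 0 were called (median -0.10). The mitosis gene was the cyclin Ccnb2, which fell by 0.62 (adjusted p = 0.016). The mean deviation of the replication genes was -0.16 to 0.38 in controls and -0.33 to 0.08 in null cultures, so the groups overlapped, with heterozygous line 26 and wild-type line 20 highest. Like those of the respiratory chain, most differences in these lists were negative: only 7 of 40 were positive for replication, 3 of 51 for mitosis, 16 of 51 for repair and 7 of 42 for ribosomal protein genes, where 53.6% of all genes were negative. Ribosomal proteins had 0 calls among 42, the proteasome 0 among 43, histones 0 among 15, interferon-stimulated genes 0 among 22, Ets factors 0 among 18, forkhead factors 0 among 20 and sodium and chloride channels 0 among 17. Chaperones had 2 lower among 70, Hspa9 and Dnajc10, and apoptosis genes 1 lower among 29, which was Cycs. Dnajc10 had an adjusted p of 0.033 over all arrays; with 1 array left out its call held only without wild-type line 20, heterozygous line 15, null line 12 or null line 16. A missing call does not show that these genes did not differ. Regulators of cell-cycle entry had calls in both directions. Of 31 G1 cyclins, kinases and inhibitors 4 rose and 4 fell: the G1 kinase gene Cdk6 fell by 1.70 ± 0.30 (SE) (adjusted p = 0.0026), the E2F repressor gene E2f6 fell by 0.82 ± 0.10 (SE) (adjusted p = 0.00016) and E2f8 fell by 0.66, while Myc rose by 0.51 and the CDK4/6 inhibitor gene Cdkn2b, which lies beside the deleted Ink4a/Arf locus, rose by 0.73. For 4 genes of this list every null culture lay below every control. Other settings ended calls with the Gapdh term for Ccnb2, E2f8, Myc and Cdkn2b, with the mean of all probe sets for E2f8, in the fit of 2 groups of 6 for Ccnb2, without null lines 14 and 16 for Myc.

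Neural stem and radial glia genes had rises and no falls. Of 20 tested, 5 rose and 0 fell; 5 rose against wild-type alone, 4 against heterozygous cultures alone and 3 with the Gapdh term. The mean deviation of the 20 was 0.16 to 0.39 in null and -0.37 to -0.11 in Olig-expressing cultures. The median difference was smaller, 0.17, with 0.12 against wild-type and 0.27 against heterozygous cultures. Of the 20 differences 15 were positive, and 15 genes had no call. Gli2, the main transcriptional activator of Hedgehog signalling, had signals of 13.5, 20.8 and 54.6 in the wild-type, 24.9, 63.1 and 126 in the heterozygous and 238 to 459 (median 372) in the null cultures and rose by 2.67 ± 0.34 (SE) (adjusted p = 0.00019). Sox1, a SoxB factor of early neural progenitors, had signals of 585, 368 and 384 in the wild-type, 350.5, 346 and 408 in the heterozygous and 719 to 1402 (median 895) in the null cultures and rose by 1.22 ± 0.18 (SE) (adjusted p = 0.00053). Lhx2, a LIM-homeobox factor of forebrain progenitors, rose by 0.99 ± 0.17 (SE) (adjusted p = 0.0024). The null cultures lay above all controls for these 3 genes, and the control groups overlapped with each other. Of 17 Hedgehog genes 2 rose, Gli2 among them, and 1 fell, with a median of 0.03. The fall was that of Ptch1, by 0.48 (limma, adjusted p = 0.0052), named after its values were seen. Of 26 astrocyte genes 7 rose and 2 fell (5 and 1 against wild-type, 4 and 0 against heterozygous cultures, 4 higher and 0 lower with the Gapdh term). Glutamine synthetase, Glul, rose by 1.74 ± 0.20 (SE) (adjusted p = 0.00012), Cst3 rose by 0.58 and Sparcl1 rose by 0.55, while the gap-junction gene Gja1 fell by 1.77 and Id3 fell by 0.57. The Sparcl1 difference was 0.99 against wild-type and 0.11 against heterozygous cultures (adjusted p = 0.67). The mean deviation of the 26 astrocyte genes was -0.45 to 0.75 in null and -0.38 to 0.22 in Olig-expressing cultures, so the groups overlapped, with null lines 21 and 24 at -0.33 and -0.45; against wild-type 13 of the 26 differences were positive. Gfap, the astrocyte filament gene, named after its values were seen, was not called (adjusted p = 0.077): it was 188, 1318 and 223 in wild-type, 252, 254 and 193 in heterozygous and 297 to 6441 (median 1759) in null cultures. Of 16 oligodendrocyte precursor genes 5 fell and 3 rose, and Olig1 and Olig2 were 2 of the 5; 4 fell and 0 rose with the Gapdh term, and 4 or 5 members were called without wild-type line 2 or 3, heterozygous line 11 or null line 12, 13, 14 or 24. The NG2 proteoglycan gene Cspg4 fell by 1.84 ± 0.22 (SE) (adjusted p = 0.00012), while Rlbp1 rose by 1.25. Of 16 neuronal genes 3 rose and 1 fell: the ubiquitin hydrolase gene Uchl1 rose by 1.69, the adhesion gene Ncam1 rose by 1.04, while the growth-cone gene Gap43 fell by 3.04. In this group calls ended with the Gapdh term for Gja1, Id3, Rlbp1, Ncam1 and Gap43, in the fit of 2 groups of 6 for Sparcl1.

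The transcription factor families described in detail had calls in both directions, while forkhead and Ets factors had 0 calls among 20 and 18. Called were 57.1% of the E protein and Id genes and 19.05% of the Kruppel-like and Sp factors, against 8.32% of all genes. For the tripartite-motif genes the share was 16.7%. Of the 7 E protein and Id genes 3 rose and 1 fell: besides Id4 the E protein gene Tcf12 rose by 0.52 ± 0.07 (SE) (adjusted p = 0.00046), whereas Id3 fell by 0.57, and Id2, with a difference of 0.70, kept its call only where wild-type line 3, heterozygous line 15 or null line 24 was left out. With the Gapdh term 2 of the 7 rose. Of 77 homeobox factors 8 rose and 1 fell, 11.7% called, a share below the limit for lists taken up in detail. Against wild-type 34 of the 77 differences were positive (median -0.07), and against heterozygous cultures 46 were (median 0.09). Of 21 Kruppel-like and Sp factors 1 rose and 3 fell: Klf15 rose by 1.94 ± 0.29 (SE) (adjusted p = 0.00069), Klf12 fell by 0.82 and Klf10 fell by 0.56. Of 30 tripartite-motif genes 2 rose and 3 fell, and Trim2 was the 1 gene of the 5 called whichever array was left out. Its signals were 282, 401 and 336 in the wild-type, 541, 467 and 495 in the heterozygous and 2283 to 4844 (median 3634) in the null cultures, and it rose by 3.02 ± 0.17 (SE) (adjusted p = 9.2e-08). Calls did not hold with the Gapdh term for Id3 and Klf10, with the mean of all probe sets for Klf12.

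Signalling genes changed in both directions. Calls made up 17.9% of the Notch, 16.3% of the Wnt and 27.8% of the FGF genes tested, against 8.32% of all genes. In the Notch pathway, which keeps progenitors undifferentiated, 3 of 28 tested rose and 2 fell: the receptor gene Notch2 rose by 0.85 ± 0.13 (SE) (adjusted p = 0.00063), the ligand gene Jag1 rose by 0.76 and the target gene Hey1 rose by 1.61, while the ligand gene Dll1 fell by 1.28 ± 0.19 (SE) (adjusted p = 0.00064) and the glycosyltransferase gene Lfng fell by 0.59. In the Wnt pathway 3 of 43 tested rose and 4 fell: the ligand gene Wnt4 rose by 1.53 ± 0.23 (SE) (adjusted p = 0.00069) and the receptor gene Fzd1 rose by 0.59, while Fzd5 fell by 0.87, the feedback inhibitor gene Nkd1 fell by 1.17 and Wnt5a fell by 0.79. The Fzd symbols had the largest share of calls among symbol stems with 10 or more genes tested, 4 of 11, 2 in each direction, ahead of Sema (5 of 14), Cox (7 of 23), Adamts (3 of 10), Itga (3 of 10) and Ndufb (3 of 10). In the FGF group 4 of 18 tested rose and 1 fell: the receptor gene Fgfr2 rose by 0.75, the FGF-binding protein gene Fgfbp3 rose by 1.24 ± 0.23 (SE) (adjusted p = 0.0031) and Flrt3 rose by 1.16. Only 6 of the 18 FGF differences were positive, and their median was -0.14. Without wild-type line 3 the FGF group had 3 calls. The ligand bFGF itself was in the medium. Calls were lost with the Gapdh term for Jag1, Hey1, Fzd5, Nkd1, Wnt5a, Fgfr2 and Flrt3, with the mean of all probe sets for Fgfr2, without null lines 14 and 16 for Fgfr2.

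Of 38 genes of PDGF, IGF and other growth-factor receptors 5 rose and 6 fell. That is 28.95% called, the largest share in this paragraph, and MAP kinase feedback genes had the smallest, 15%, against 8.32% of all genes. The neurotrophin receptor gene Ntrk2 fell by 1.08 ± 0.15 (SE) (adjusted p = 0.00037) and the receptor kinase gene Alk fell by 0.97 ± 0.17 (SE) (adjusted p = 0.0028), while the stem cell factor receptor gene Kit rose by 1.47 ± 0.27 (SE) (adjusted p = 0.0032) and the IGF2 clearance receptor gene Igf2r rose by 0.69. Of 40 MAP kinase feedback and immediate early genes 4 rose and 2 fell: the phosphatase gene Dusp4 rose by 1.94 ± 0.27 (SE) (adjusted p = 0.00041), while Dusp7 fell by 1.02 and Arc fell by 2.79. Of 49 G-protein signalling genes 6 rose and 2 fell, and of the 14 RGS genes among the tested, 3 rose and 1 fell. Rgs14 rose by 1.98 ± 0.11 (SE) (adjusted p = 9.2e-08), Rgs8 rose by 1.54 and Rgs7 fell by 1.01, and the alpha subunit gene Gnao1 rose by 1.15. Of 19 protein kinase C and calmodulin kinase genes 3 rose and 2 fell. Prkcb, a conventional protein kinase C, had signals of 8444, 6482 and 6206 in the wild-type, 5263, 4138 and 7466 in the heterozygous and 1394 to 2197 (median 1907) in the null cultures and fell by 1.77 ± 0.15 (SE) (adjusted p = 7.6e-06); all null cultures lay below all controls. Camk1d rose by 1.45 and Prkce rose by 1.08. Of 15 receptor tyrosine phosphatases 3 rose and 1 fell, among them Ptprd, which rose by 1.74 (limma, adjusted p = 1.6e-05). Only 4 of the 15 phosphatase differences were positive, and their median was -0.19. Of 30 chemokine and cytokine genes 2 rose and 4 fell: the receptor genes Cxcr4 and Il1rap rose by 2.37 and 0.94, and the ligand genes Cx3cl1 and Cxcl10 fell by 1.05 and 1.89. Under alternative settings calls ended with the Gapdh term for Alk, Igf2r, Dusp7, Arc, Rgs8, Rgs7, Camk1d and Prkce, with the mean of all probe sets for Ntrk2.

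Guidance cues and their receptors, which steer migrating cells and axons, had 10 rises and 5 falls among 52 genes, and 7 rises and 3 falls with the Gapdh term. 10 rose and 4 fell against wild-type alone, and 7 rose and 2 fell against heterozygous cultures alone. Semaphorins and plexins made up much of this, with 6 of 25 higher and 2 lower. The semaphorin receptor gene Plxnd1 had signals of 412, 409 and 524 in the wild-type, 1458, 634 and 915 in the heterozygous and 1868 to 5719 (median 5009.9) in the null cultures and rose by 2.61 ± 0.26 (SE) (adjusted p = 2.4e-05). Plxna2 had signals of 751, 1016 and 920.0 in the wild-type, 1112, 1072 and 964 in the heterozygous and 1911 to 4183 (median 3189) in the null cultures and rose by 1.66 ± 0.17 (SE) (adjusted p = 2.8e-05), and the ligand gene Sema6d rose by 0.97 ± 0.11 (SE) (adjusted p = 7.2e-05). For Plxnd1 the heterozygous cultures lay above the wild-type cultures and below the null cultures. Of 14 ephrins and Eph receptors 3 rose and 2 fell: Epha3 rose by 2.61 ± 0.39 (SE) (adjusted p = 0.00069), Efna5 rose by 2.05 ± 0.27 (SE) (adjusted p = 0.00029), Ephb1 rose by 0.98 and Efnb1 fell by 0.85 ± 0.12 (SE) (adjusted p = 0.00041). Efna5 was at 29.8, 53.1 and 41.2 in wild-type, 243, 140.5 and 199 in heterozygous and 252 to 683 in null cultures, and it was called against wild-type (2.98) but not against heterozygous cultures (1.12, adjusted p = 0.091). The netrin gene Ntn1 fell by 1.15 ± 0.15 (SE) (adjusted p = 0.00019).

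Of 40 synaptic and immunoglobulin adhesion genes 6 rose and 5 fell: Igsf11 rose by 1.58 ± 0.20 (SE) (adjusted p = 0.00019) and Lrrn1 rose by 1.06, while besides Chl1 the synaptic adhesion gene Cadm1 fell by 0.88 ± 0.13 (SE) (adjusted p = 0.00055) and the Nogo co-receptor gene Lingo1 fell by 0.79. Of 15 cadherins 3 rose and 1 fell, of which Cdh6 rose by 1.33 and Cdh22 fell by 1.24. Matrix and matricellular genes had 9 of 44 higher and 3 lower, 8 and 2 against wild-type, 3 and 0 against heterozygous cultures and 4 higher and 1 lower with the Gapdh term. Nidogen 1, Nid1, a basement membrane linker, had signals of 82.2, 178 and 67.2 in the wild-type, 75.6, 134 and 81.6 in the heterozygous and 388 to 1378 (median 611) in the null cultures and rose by 2.57 ± 0.31 (SE) (adjusted p = 0.00013); null line 14 was highest. Thsd4 rose by 3.83, and Sparcl1 rose by 0.55 (0.11 against heterozygous cultures), while Igfbp7 fell by 1.12 and elastin, Eln, fell by 0.55. Of 48 proteases and inhibitors of the matrix 5 rose and 4 fell, among them Adamts9, which rose by 1.15 (adjusted p = 0.00042), and the lysosomal protease gene Ctsh, which fell by 2.05 (adjusted p = 0.00053). Of 14 annexins and S100 genes 5 rose and 3 fell, with 1 higher and 1 lower under the Gapdh term and 3 calls in all without wild-type line 3; Anxa5 rose by 1.10 (adjusted p = 0.0041), while Anxa3 fell by 1.55 (adjusted p = 0.01). Among the genes named here, calls ended with the Gapdh term for Eln and Anxa3, with the mean of all probe sets for Lrrn1, Lingo1, Igfbp7 and Eln, in the fit of 2 groups of 6 for Sparcl1 and Eln, without null lines 14 and 16 for Eln.

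Enzymes that build surface glycans had 13 calls. Of 70 glycosyl- and sulphotransferases 9 rose and 4 fell (7 rose and 4 fell against wild-type alone, and 6 rose and 3 fell against heterozygous cultures alone, and 4 higher and 3 lower with the Gapdh term), and 5 rose and 3 fell without null line 24. B4galt1, a galactosyltransferase of N-glycan chains, had signals of 451, 519 and 530.3 in the wild-type, 540.3, 539 and 519 in the heterozygous and 1230.3 to 1636 (median 1422) in the null cultures and rose by 1.43 ± 0.10 (SE) (adjusted p = 8.1e-07). St3gal4, which caps galactose with sialic acid, had signals of 563, 568 and 589.5 in the wild-type, 993, 578 and 480.3 in the heterozygous and 1986 to 3370.3 (median 2996) in the null cultures and rose by 2.13 ± 0.18 (SE) (adjusted p = 6e-06). St6gal1, which adds sialic acid in another linkage, had signals of 1161, 1632 and 1673 in the wild-type, 786, 824 and 1141 in the heterozygous and 157 to 569.8 (median 260.1) in the null cultures and fell by 2.00 ± 0.26 (SE) (adjusted p = 0.00022). The 2 sialyltransferases thus changed in opposite directions, each without overlap between null and control cultures. B3galnt1 rose by 0.97 ± 0.12 (SE) (adjusted p = 0.00015) and Galnt10, which starts O-glycans, fell by 1.89 ± 0.27 (SE) (adjusted p = 0.00044). These 5 genes were called under every alternative and whichever array was left out, and against both control genotypes separately.

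Channels and receptors changed one by one, in both directions. Shares called were 13.95% of potassium channel, 13.3% of calcium channel and 15.8% of ATPase pump genes, against 8.32% of all genes. They were 30.4% of glutamate and GABA receptor, 15.8% of transmitter and peptide receptor and 14.9% of orphan and adhesion receptor genes. Of 43 potassium channel genes 3 rose and 3 fell: Kcnc1 rose by 1.16 ± 0.11 (SE) (adjusted p = 2.2e-05) and Kcnn2 rose by 1.31, while the A-type channel gene Kcnd2 fell by 2.63 ± 0.34 (SE) (adjusted p = 0.00023) and Kcnj16 fell by 0.65. Of 30 calcium channel genes 2 rose and 2 fell, of 38 ATPase pump genes 2 rose and 4 fell, and of 17 sodium and chloride channel genes 0 were called. Of 23 glutamate and GABA receptor genes 4 rose and 3 fell: the AMPA receptor accessory gene Cacng5 rose by 3.37 ± 0.50 (SE) (adjusted p = 0.00065) and the GABA receptor genes Gabra4 and Gabrg1 rose by 2.11 and fell by 1.95. Of 38 transmitter and peptide receptor genes 3 rose and 3 fell, among them the endothelin receptor gene Ednrb, which fell by 1.81 ± 0.21 (SE) (adjusted p = 0.00012), and the thrombin receptor gene F2r, which rose by 0.83 (adjusted p = 0.00039). Of 47 orphan and adhesion receptor genes 3 rose and 4 fell: Gpr37 rose by 3.25 ± 0.43 (SE) (adjusted p = 0.0003), while Adgre5 fell by 1.73 ± 0.19 (SE) (adjusted p = 7.7e-05) and Adgrg1 fell by 0.65. Of 28 imprinted genes 2 rose and 5 fell: Ndn rose by 1.42 (adjusted p = 0.00069), while Gatm fell by 1.25 (adjusted p = 0.00079) and Mest fell by 0.91. Other settings ended calls with the Gapdh term for Kcnn2, Kcnj16 and Gabra4.

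Several of the larger families among the remaining lists had shares of calls near or below that of all genes. Of 287 zinc-finger genes of the Zfp and Zbtb type 6 rose and 6 fell, of 222 solute carriers 8 rose and 10 fell, and of 112 ubiquitin ligases of the RING and F-box type 5 rose and 1 fell. Chromatin and DNA methylation genes had 3 rises and 2 falls among 68, Rab genes 3 and 2 among 49, kinesins and dyneins 4 and 0 among 46, translation initiation genes 2 and 2 among 46, BMP and TGF-beta genes 2 and 1 among 36, nuclear receptors 1 and 1 among 31, p53 targets 1 and 1 among 27 and collagens 1 and 1 among 24. EGF receptor family genes, whose pathway the virus drives in all 12 cultures, had 1 rise among 13. It was that of Egfr itself, by 0.48 (limma, adjusted p = 0.014), named after its values were seen. The part of the viral receptor in the Egfr signal was not tested. Genes of the ventral forebrain and interneurons had 0 calls among 5 and the Hox cluster 0 among 8. The part of culture passage in any of these results was not tested, since the passage of each array is not given.

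**Figure D4:**
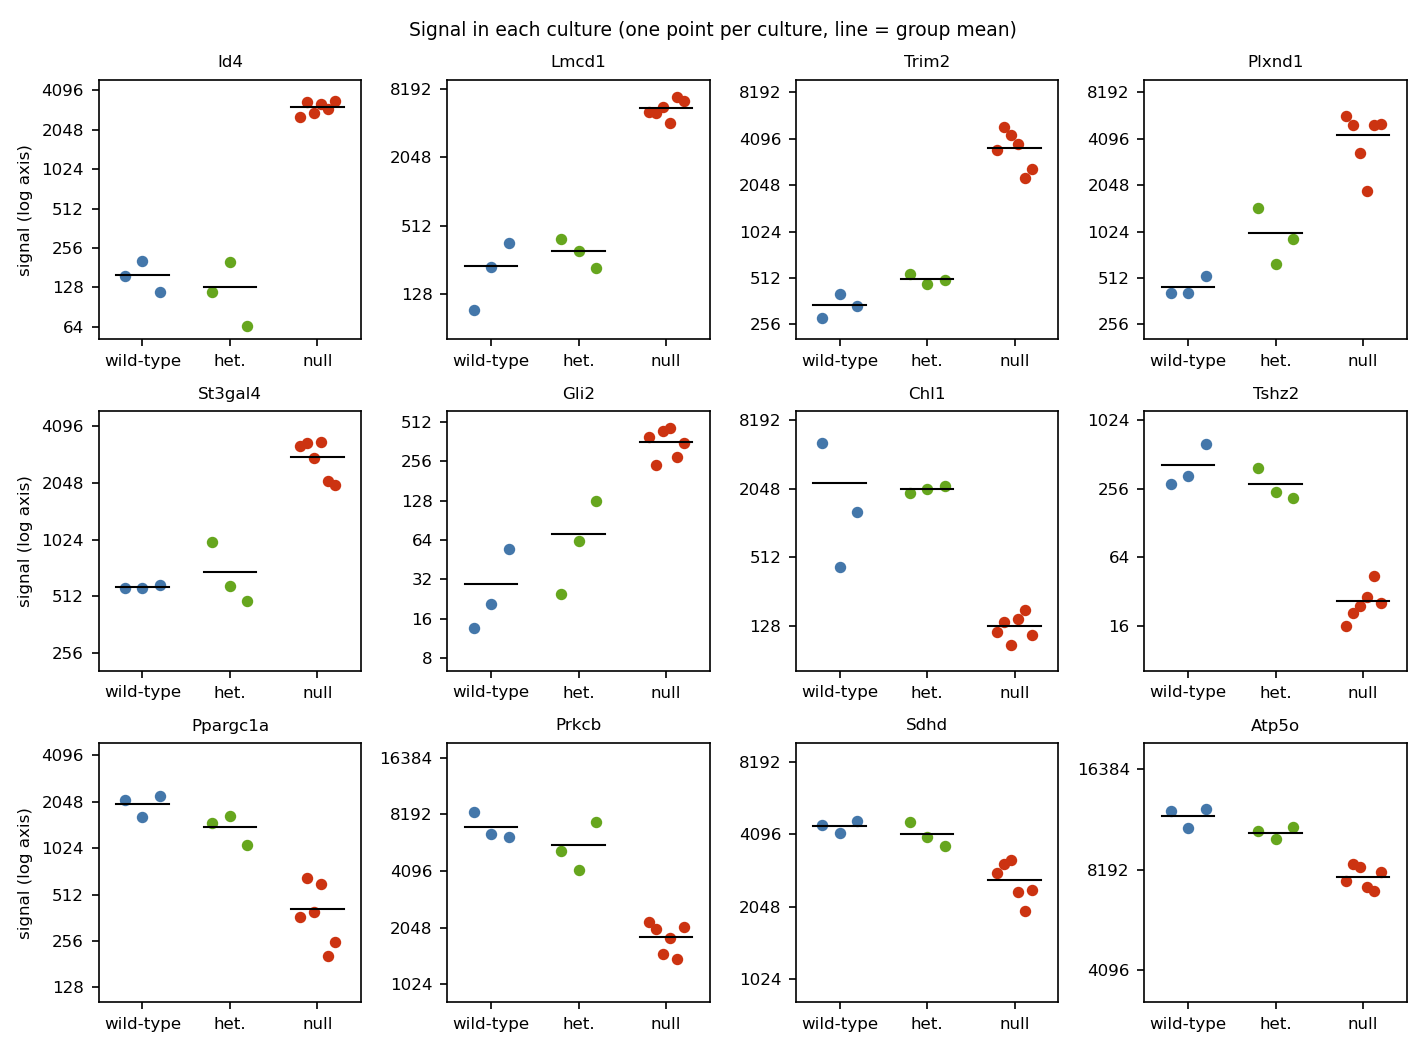
Signal (log axis, arbitrary units) of 12 genes in each culture. Each point is 1 culture, the line is the group mean, and het. stands for heterozygous. For every gene shown the 6 null cultures do not overlap the 6 Olig-expressing cultures. The heterozygous mean lies between the wild-type and null means for several genes, among them Plxnd1, Ppargc1a, Trim2, Gli2 and Tshz2, but not for Id4.

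In E18.5 tissue the called genes leaned to neither side. These embryos, labelled Olig2 -/- and Olig2 +/- with no Ink4a/Arf or Olig1 genotype given, numbered 2 of each, and they differed in 16 of 12342 genes in spinal cord (0.13%) and in 5 in forebrain (0.0405%). Of the 522 genes higher in null neurospheres 498 were tested there, and 48.2% had a positive difference in spinal cord and 52.8% in forebrain, against 49.1% and 50.3% of all genes. Of the 478 lower genes 449 were tested, and 52.1% and 49.0% had a negative difference, against 50.9% and 49.7% of all genes. The median differences were -0.01 and 0.00 for the higher genes and -0.01 and 0.01 for the lower genes. Of the neurosphere calls only Olig1 and Olig2 were also called in the same direction in a tissue, both in spinal cord, where the differences were -1.03 and -3.24 (adjusted p = 0.0054 and 0.043). With 2 embryos a group, few calls can be made.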

How the data were processed

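RNA of the 12 untransduced neurosphere cultures was hybridised to Affymetrix Mouse Genome 430 2.0 arrays. The authors deposited 1 linear signal intensity per probe set and array, computed with MAS5 per the submitters' processing notes, with the version not given in the sources used here. On every array the mean of the deposited intensities, with 2% trimmed at each end, was 500, so the values were not scaled again. Array data carry no read depth, so precision depends on how many arrays there are. The added 16 compresses differences of low signals, and probe sets of different genes are not comparable with each other.

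Of 45101 probe sets 64 were controls, 34945 carried 1 gene symbol in GEO's platform annotation, 932 several and 9224 none, controls included. The RefSeq tables (GRCm38.p6) held 34741 of them by Entrez identifier and changed 0 symbols. Each of 18193 genes was represented by 1 probe set, the one with the highest mean log2 signal across all 30 arrays. Genes at or above the array median on at least 3 of the 12 arrays were tested on log2(signal + 16) with limma 3.58.1 in R 4.3.3 (lmFit with 1 coefficient per genotype, contrasts, eBayes with a variance trend), two-sided, with Benjamini-Hochberg adjustment over all 12022 genes. Calls are genes with an adjusted p under 0.05. The Olig-expressing level is the mean of the wild-type and heterozygous coefficients. The procedure was tested on simulated data. The counts of 1 gene family are not reported here.

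The gene lists, the families and the comparison itself were chosen with earlier results of these data known. Named genes are Olig1, Olig2, Id4 and Cdkn2a, the 10 largest rises and 10 largest falls, up to 3 called genes per direction of smallest p from each list described (up to 2 of smallest p where none was called), the symbol stems with the 6 largest shares called, the genes called between heterozygous and wild-type cultures, and up to 5 genes per direction with the widest gap; the called members of lists with few calls, the marker genes and the mitochondrial genes beyond the respiratory chain were named after their values were seen. Alternatives changed the pseudocount, filter, scaling, probe-set choice, variance model and samples, or added a term for the Gapdh 3'/5' ratio, Xist or chromosome medians. Promoters were searched in Python 3.11.15 with pandas 2.3.3. Arrays of cultures with GFP or Olig2 virus were left out of the tests, and the tissue arrays were fitted on their own, over 12342 genes.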

Additional observations from a re-analysis of the deposited data

Results flagged for a closer look

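Among 227 genes looked at, 9 had 1 null culture far from the other 5, by Dixon's ratio of the gap to its nearest neighbour over the range of the 6 cultures. Chance alone gives such a culture in about 1 in 20 groups. Null line 14 stood high for Alk (311.2, others 156.4 to 197.8) and low for Fat3 (697.8, others 1116.6 to 1275.1). Null line 16 stood low for Cpt1c (840.0, others 1387.5 to 1622.8) and Pcdh7 (2.4, others 28.8 to 47.2) and high for Kcnj16 (580.4, others 322.4 to 381.1). Null line 13 stood low for E2f6 (411.0, others 486.1 to 526.9) and Epha5 (101.1, others 269.8 to 378.9) and high for citrate synthase, Cs (8510.4, others 6360.9 to 7090.4). Null line 12 stood high for Trim62 (2692.1, others 1600.8 to 1891.2).

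In 4 genes the null difference itself depended on the control genotype, by the test of heterozygous against wild-type cultures: Efhd2 was higher by 1.36, Rhbdf1 by 0.95 and Sparcl1 by 0.88 in heterozygous cultures, and Klhl23 differed by -1.03 (limma, adjusted p under 0.05, 3 cultures each).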

How the results depend on the processing

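The count of 1000 genes called between null and Olig-expressing cultures was 437 with the Gapdh term, 1184 with array weights, 1319 with a term for lines 20 to 26, 315 with a difference of at least 1 on the log2 scale and 762 to 954 when 1 array was left out. Against wild-type the 806 calls became 157 with the Gapdh term, 326 with that size limit and 478 to 828 with 1 array left out. Against heterozygous cultures the 422 calls became 374 with the Gapdh term, 215 with the size limit and 242 to 442 with 1 array left out. Between heterozygous and wild-type cultures the count of 4 was 0 without the filter on low signals, 0 without the variance trend and 0 with the Gapdh term, 1 after 75th percentile scaling, 1 without cross-hybridising probe sets and 1 with chromosome medians removed, 2 with the Xist term and 2 with the size limit, 9 with a term for lines 20 to 26, 11 without null lines 14 and 16, and 0 to 8 with 1 array left out. The causes were not tested. Of the named genes 2 reversed: Trim62 was at -0.11 with the mean of all probe sets and Hs3st2 at 0.23 without cross-hybridising probe sets. Of 201 named genes 88 lost the call with the Gapdh term, 40 with the mean of all probe sets and 25 without null lines 14 and 16. The Xist probe set, the term for lines 20 to 26 and the removal of lines 14 and 16 were chosen after seeing the data. Signals near background limit genes whose null or control level was below the array median. No paired analysis was possible because the genotypes share no line number.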
